A study of Mus musculus with 2 samples.

Results

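The ribosomal protein genes were taken as the RefSeq entries whose symbol is Rpl or Rps followed by a number with at most one of the letters a, l or x, or by p0, p1, p2 or a. The rule gave 75 of the 24165 entries in the table of gene activity, and these belong to 67 of its 20128 gene symbols. The large subunit has 52 entries of 44 genes, and the small subunit has 23 entries of 23 genes. Gene activity was measured by GRO-seq, in which engaged RNA polymerases run on in isolated nuclei with bromouridine, so that nascent RNA can be captured and sequenced. Both libraries came from untreated C2C12 myoblasts, an established mouse line of muscle precursor cells, harvested at 80% confluency, 4 plates going into a preparation of nuclei. The authors pooled the 2 libraries and deposited a single activity per entry in RPKmM, the reads per kilobase of mappable bases, scaled to sequencing depth, on the sense strand from 1 kb after the start of transcription to the transcript end. Entries not significantly denser in reads than gene deserts, at a false discovery rate of 0.01, are marked Inactive. With 1 pooled value per gene no replicate error could be computed, no test was made, and the table does not give the read number behind each value.

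The line is a single cell type without a second condition, so the comparisons below are between genes. All 6 myoblast markers examined were active, against 70.2% of all entries. They ranged from Myod1, a master regulator of the muscle lineage, at 2.39 RPKmM to Des, which encodes desmin, at 72.45. Among the 9 entries of markers of other cell types, 6 were inactive and the other 3 reached at most 0.02.

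Ribosomal proteins assemble with ribosomal RNA in the nucleolus into a small subunit, which decodes the messenger RNA, and a large subunit, which forms peptide bonds. Each protein is needed in about equal number in every ribosome, and their messenger RNAs commonly begin with a run of pyrimidines, the 5' terminal oligopyrimidine (TOP) motif, through which translation is controlled by growth signals. Many of these genes also carry small nucleolar RNAs (snoRNAs) in their introns. Box C/D snoRNAs guide methylation of ribosomal RNA, and box H/ACA snoRNAs guide its pseudouridylation.

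The snoRNAs are shown first because the order of activity followed them more closely than any other feature examined. GENCODE annotates 55 snoRNA genes within 28 of the 65 active ribosomal protein genes on the same strand, and all 55 lie wholly within introns of the transcript used. By their names 35 are box C/D, 19 are box H/ACA and 1 has no class in its name. For 42 of them the midpoint lies at least 1 kb after the start, in the region where the authors counted reads. The sequences below are of mouse genome assembly mm9 (NCBIM37), 5' to 3' on the strand of the host. For 5 of the most active host genes of box C/D snoRNAs, the first such snoRNA in the counted region that has both boxes, or the first of all where none has, is printed with box C (TGATGA) and box D (CTGA) in capitals.
Snord83b, in Rpl3, chr15:79908928-79909021 (-): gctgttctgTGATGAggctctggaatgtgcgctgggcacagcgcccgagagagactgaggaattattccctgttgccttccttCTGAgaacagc
Snord100, in Rps12, chr10:23505556-23505629 (-): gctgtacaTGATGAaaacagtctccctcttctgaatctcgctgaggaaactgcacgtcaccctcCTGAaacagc
Snord32a, in Rpl13a, chr7:52382752-52382834 (-): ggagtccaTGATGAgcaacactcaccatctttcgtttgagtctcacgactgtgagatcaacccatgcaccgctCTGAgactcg
Snord4a, in Rpl23a, chr11:77995188-77995258 (-): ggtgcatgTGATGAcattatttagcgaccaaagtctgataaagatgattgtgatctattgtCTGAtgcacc
SNORD36, in Rpl7a, chr2:26767738-26767811 (+): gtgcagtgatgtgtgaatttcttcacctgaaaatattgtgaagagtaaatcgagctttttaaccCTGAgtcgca
The letters TGATGA within the first 20 bases together with CTGA within the last 20 were found in 19 of the 35 box C/D snoRNAs of these genes, against 65.5% of the 386 snoRNAs with a box C/D name in the whole annotation. The letters lie at opposite ends and cannot overlap. The SNORD36 copy in Rpl7a lacks the letters TGATGA in this window.

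Box H/ACA snoRNAs are longer and end a few bases after the letters ACA, in capitals below. The first pair lies in the counted regions of the most active genes with only this class, and Snora21 lies within the first kb of Rpl23.
Snora3, in Rpl27a, chr7:116663634-116663765 (+): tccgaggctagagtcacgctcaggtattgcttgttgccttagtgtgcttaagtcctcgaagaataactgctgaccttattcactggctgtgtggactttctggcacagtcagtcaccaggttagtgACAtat
SNORA62, in Rpsa, chr9:120037898-120038053 (+): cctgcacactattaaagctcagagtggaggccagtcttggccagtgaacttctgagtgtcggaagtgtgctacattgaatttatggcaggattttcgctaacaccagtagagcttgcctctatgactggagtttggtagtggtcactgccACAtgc
Snora21, in Rpl23, chr11:97642953-97643089 (-): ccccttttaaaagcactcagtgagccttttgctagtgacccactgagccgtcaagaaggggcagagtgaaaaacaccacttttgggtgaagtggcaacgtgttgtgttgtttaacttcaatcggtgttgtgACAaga
ACA within the last 10 bases was found in 18 of the 19 box H/ACA snoRNAs of these genes and in 64.4% of the 1031 with such a name in the annotation.

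Of the 75 ribosomal protein entries 72 (96.0%) were active, against 70.2% of all entries in the table. Their median activity was 6.06 RPKmM (quartiles 2.48 and 13.5), whereas that of the 16885 other active entries was 0.86 (quartiles 0.22 and 1.97). The ratio of these medians was 7.05. At least 1 RPKmM was reached by 68 ribosomal protein entries, against 32.3% of all entries. At least 10 RPKmM was reached by 23 (30.7%), against 2.03% of all entries. Only 4 active ribosomal protein entries lay below the median of the other active entries. These genes are short, spanning 2010 to 10359 bp with a median of 3243 in GENCODE, and the counted region therefore had a median of 2243 bp. Other genes of a span between 2 kb and that of the longest ribosomal protein gene had a median of 0.78 where active. These genes were chosen by this range only and were not matched in span within it.

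The values covered a wide range although the proteins are used in about equal number. From the lowest, Rps27l at 0.39 RPKmM, to the highest, Rpl17 at 888.63, the levels differed by more than 3 orders of magnitude. The most active member was Rpl17, whose protein lines the exit of the peptide tunnel, and only 2 entries of the whole table were higher. It accounted for 46.8% of the summed activity of the 65 active genes, and the 10 highest genes together for 80.3%. Without Rpl17 the median was 5.96.

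After Rpl17 came Rpl3, a protein near the peptidyl transferase centre, at 182.05 RPKmM. These were the only members of at least 100, a level reached by 0.0993% of all entries. Rps12, a protein of the head of the small subunit, had 93.19. Rpl13a, also known for a role in translational silencing outside the ribosome, had 74.31. Rpl23a, a docking site of the signal recognition particle at the tunnel exit, had 52.73. Rpl7a followed with 47.23. All 6 of these genes hold a box C/D snoRNA in the counted region. Rps24 at 34.5 was the highest gene with no snoRNA annotated. Rpl4, whose protein reaches into the tunnel wall, had 32.16 with 5 box C/D snoRNAs in the counted region. Rpl27a had 29.06 and holds 2 box H/ACA snoRNAs there.

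**Figure D1:**
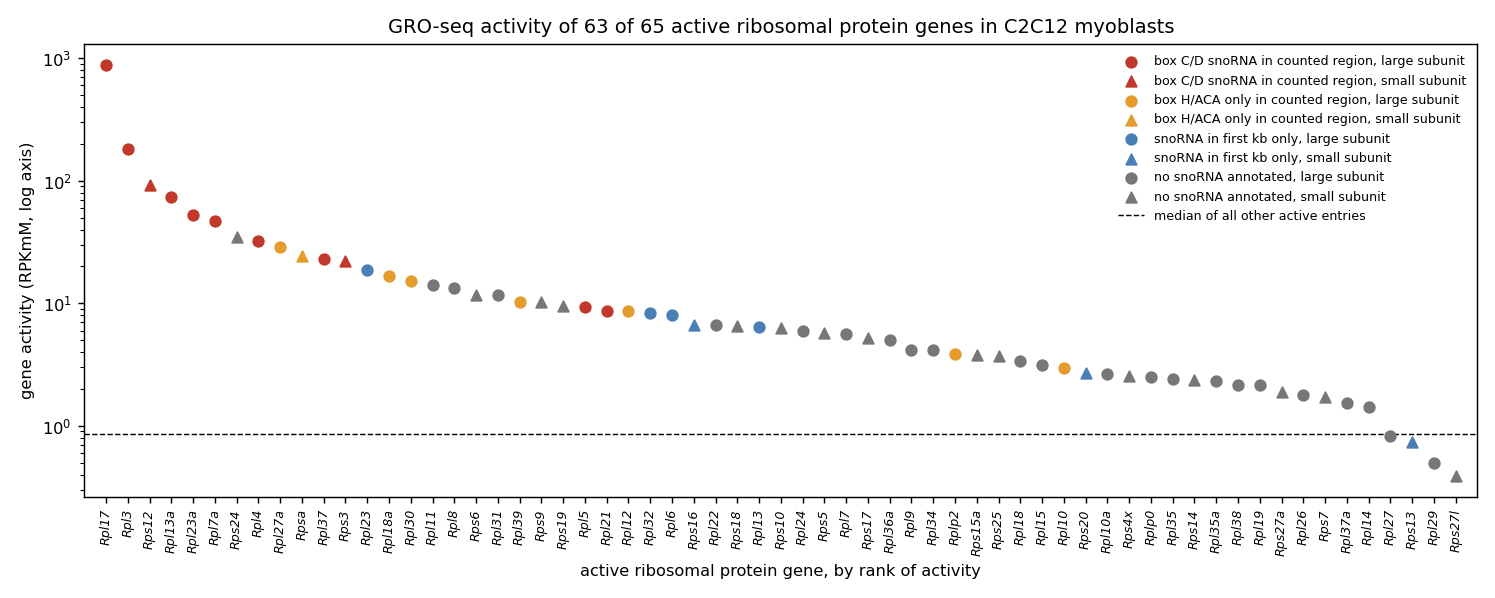
Gene activity in RPKmM on a log axis for 63 of the 65 active ribosomal protein genes (x axis, in order of activity), using the highest entry of a gene, with circles for the large and triangles for the small subunit and colour for the snoRNA class of the gene. The 6 highest genes shown all hold a box C/D snoRNA in the counted region, and 4 genes lie below the dashed median of 0.86 of the other active entries.

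At the lower end, Rps27l had 0.39 RPKmM. Rpl29, a small basic protein of the large subunit, had 0.5, and Rps13 had 0.74. Rpl27, mutated in some patients with Diamond-Blackfan anaemia, had 0.83. These 4 values are those below the median of the other active entries. The next were Rpl14 at 1.42, Rpl37a at 1.54, Rps7 at 1.71, Rpl26 at 1.77, Rps27a at 1.88 and Rpl19 at 2.15. Of these 10 lowest genes, 9 have no snoRNA annotated, and 1, Rps13, has a snoRNA only within the first kb. Among the 10 highest genes 8 hold a box C/D snoRNA in the counted region, 1 holds only box H/ACA snoRNAs there, and 1, Rps24, holds none.

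The map of the most active genes shows where the snoRNAs lie. In Rpl17, 3 copies named SNORD58 begin 581, 978 and 1403 bp after the annotated start, so 2 of them have their midpoint in the counted region. In Rpl3, the 2 snoRNAs begin at 3063 and 4815 bp. Rpl13a carries Snord32a, Snord33, Snord34 and Snord35a, all within the counted region, and together these take up 14.9% of it. The share of the counted region held by snoRNAs ranged from 2.99% in Rps3 to 19.8% in Rps12 over the 21 genes with at least 1 there. In Rpl17 it was 5.67%, so the highest value did not go with the highest share. In Rps13, Snord14a ends 962 bp after the start and lies just outside the counted region, and the activity of this gene was 0.74. Its sequence has both boxes.
Snord14a, in Rps13, chr7:123476685-123476771 (-): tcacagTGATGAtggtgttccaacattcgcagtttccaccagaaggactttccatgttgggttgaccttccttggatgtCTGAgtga
The first snoRNA of Rpl27a spans 973 to 1104 bp after the start, across the 1 kb mark, and counts as inside by its midpoint. A second snoRNA of Rpl27a lies at 2133 to 2262 bp. These positions rest on the GENCODE start, which can differ from that of the RefSeq entry.

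**Figure D2:**
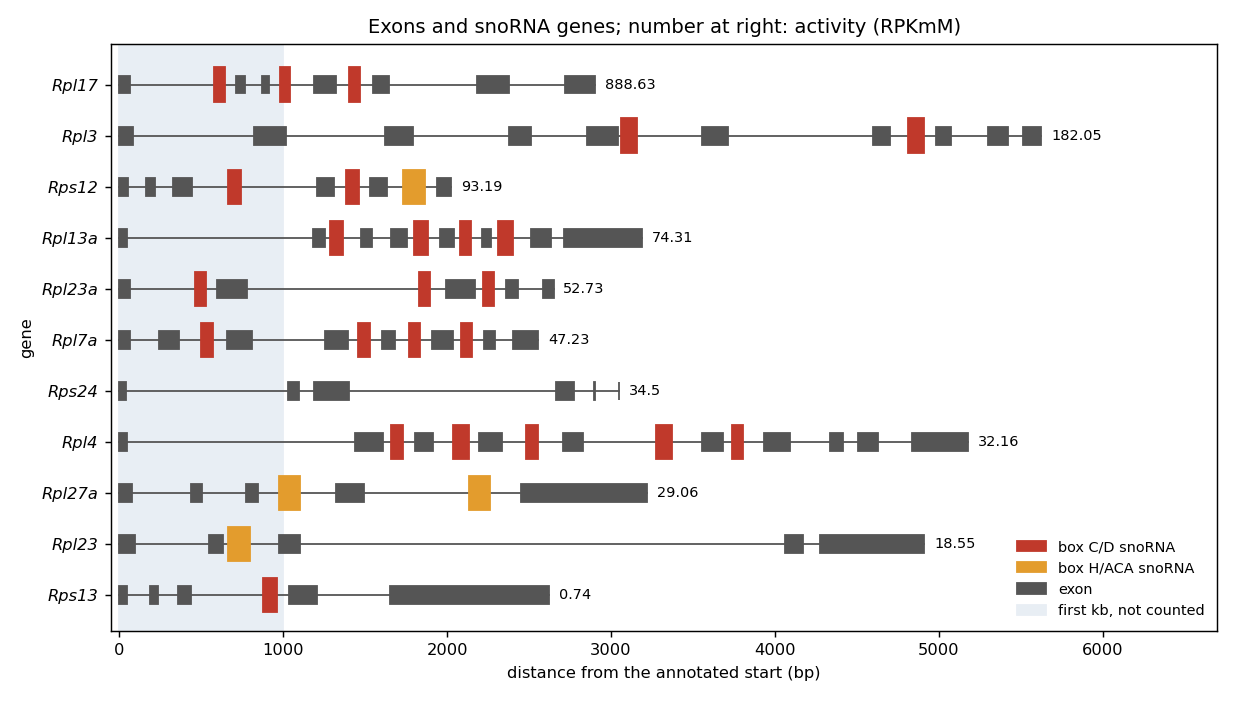
Distance from the annotated start in bp (x axis) for 9 of the 10 most active ribosomal protein genes and for Rpl23 and Rps13, with exons in grey, box C/D snoRNAs in red, box H/ACA snoRNAs in orange and the first kb, which was not counted, shaded. The number to the right of a gene is its activity in RPKmM. Of these 9, only Rps24 has no snoRNA, and the snoRNAs of Rpl23 and Rps13 lie in the shaded part.

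When the genes were divided by the class and place of their snoRNAs, a division made after the ranking was known, the 13 genes with a box C/D snoRNA in the counted region had a median of 47.2 RPKmM (lowest 7.8, highest 888.63). The 8 genes with only box H/ACA snoRNAs there had a median of 12.7, from 2.94 for Rpl10 to 29.06 for Rpl27a. The 7 genes whose snoRNAs lie within the first kb only had a median of 6.65, from 0.74 for Rps13 to 18.55 for Rpl23. The 37 active genes with no snoRNA annotated had a median of 3.73, from 0.39 to 34.5. The medians thus fell in this order, and the classes overlapped.

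A gene with a box C/D snoRNA in the counted region was more active than a gene without snoRNA in 95.01% of all pairs, and than a gene with only box H/ACA snoRNAs in 80.8%. The ratio of medians to genes without snoRNA was 12.7 for box C/D and 3.41 for box H/ACA in the counted region, and 1.78 where the snoRNA lies in the first kb only. Of the 13 box C/D genes, 7 lay above every gene without snoRNA. Among the lowest of them were Rpl21 at 8.71 and Rpl5 at 9.39, which lay among the more active genes without snoRNA. Across the 13 genes the number of box C/D snoRNAs in the counted region had a rank correlation of 0.480 with activity, but Rpl17 with 2 and Rpl4 with 5 went against it. Whether reads of the snoRNAs themselves, rather than of the whole host transcript, set these levels was not tested, since the table holds 1 value per gene and none along it.

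**Figure D3:**
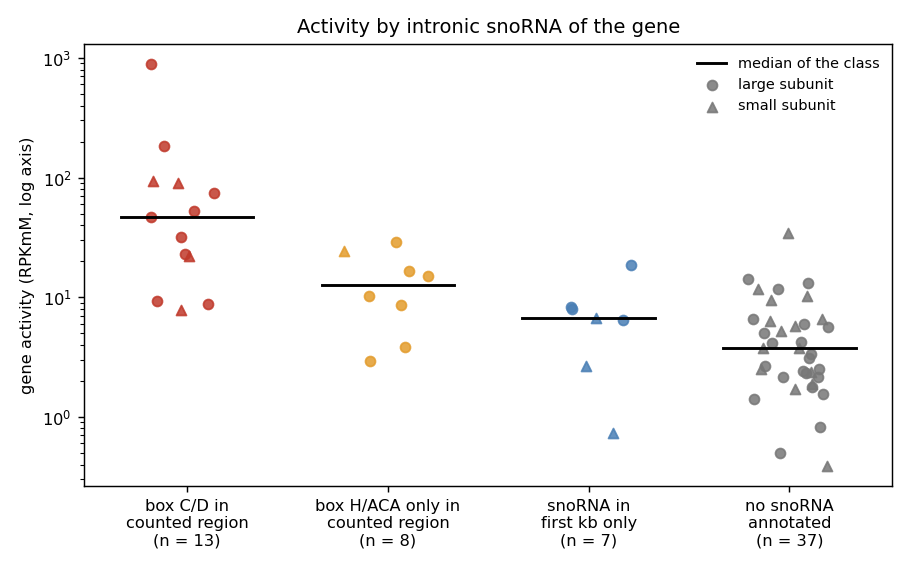
Gene activity in RPKmM on a log axis for the 65 active ribosomal protein genes in 4 classes by intronic snoRNA (x axis, with the number of genes), circles for the large and triangles for the small subunit, black bars for class medians, with points spread sideways for legibility. The medians fall from 47.2 to 12.7, 6.65 and 3.73, and every class overlaps the next.

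Outside the ribosomal protein genes the classes were lower. The 54 active other genes with a box C/D snoRNA in the counted region had a median of 5.61 RPKmM, the 121 with only box H/ACA snoRNAs 1.55, and the 12228 without snoRNA 0.89. Just 1 other gene had a snoRNA in the first kb only, at 1.71. Ribosomal protein genes without snoRNA were nevertheless 3.84 times as high by median as other entries without snoRNA, when entries were compared (3.38 against 0.88). So the higher level of the ribosomal protein genes was seen without host genes too, but it was smaller. A further protein of the small subunit, Rps3a1, whose symbol falls outside the rule, had 14.18 with 2 copies of a box C/D snoRNA in the counted region. Rack1, a scaffold protein bound to the head of the small subunit, had 172.61 with 2 box C/D snoRNAs there.

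Large and small subunit genes had similar medians. Active large subunit entries had a median of 5.96 RPKmM (quartiles 2.43 and 14.1), and small subunit entries had 6.29 (quartiles 2.61 and 10.97), a ratio of 0.948. With 1 entry per gene the large subunit was the higher, at 6.54 against 6.29, so the direction was not stable. The highest 2 genes were of the large subunit, but 7 of 23 small subunit entries (30.4%) and 16 of 52 large subunit entries (30.8%) had at least 10, against the 2.03% of all entries. Host genes were 20 of the 42 active genes of the large subunit and 8 of the 23 of the small subunit. With a snoRNA, the medians were 15.9 for the large and 14.98 for the small subunit. Without, they were 2.9 and 5.26, and by entries the ratio of large to small was then 0.490.

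By role, the proteins at the exit of the peptide tunnel were among both the highest and the lower members. Of the 9 entries, Rpl17, Rpl23a and Rpl4 had 888.63, 52.73 and 32.16, Rpl31 and Rpl39 had 11.64 and 10.28, and Rpl35, both entries of Rpl19, and Rpl26 lay from 1.77 to 2.43. The first 3 of these hold box C/D snoRNAs in the counted region and Rpl39 holds a box H/ACA snoRNA there, whereas Rpl31, slightly above Rpl39, and the last 3 genes hold none. The 5S particle brings Rpl5 and Rpl11 into the large subunit, and the same pair binds Mdm2 and thereby stabilises p53 when assembly fails. Their activities were 9.39 and 14.11, although Rpl5 holds a box C/D snoRNA and Rpl11 has none.

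The stalk recruits translation factors through the acidic proteins Rplp1 and Rplp2, held by Rplp0, with Rpl12 at its base. Rpl12 had 8.65 RPKmM, Rplp2 had 3.84 and Rplp0 had 2.49. Rplp1 was not analysed here. Rpl12 and Rplp2 both hold a box H/ACA snoRNA in the counted region. Rps27a, made as a fusion of ubiquitin with a ribosomal protein, had 1.88. Fau, which encodes a ubiquitin-like fusion, was not analysed here.

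Of 14 proteins of the head of the small subunit, 11 were analysed. All 11 were active, against 70.2% of all entries and 96% of all ribosomal protein entries, with a median of 6.29 RPKmM. They ranged from Rps27a at 1.88 to Rps12 at 93.19, and Rps3, which lies at the messenger RNA entry, had 22.15. Among 20 genes mutated in human Diamond-Blackfan anaemia, a failure of red cell production, 16 were analysed with 18 entries. All 18 were active, against 70.2% of all entries, with a median of 3.26 from 0.83 for Rpl27 to 34.5 for Rps24. Rps19, the gene most often mutated in that disease, had 9.54. At least 10 was reached by 3 of these 18 entries (16.7%), against 2.03% of all entries and 30.7% of all ribosomal protein entries. Rpl5 is the only gene among the 16 with a snoRNA in the counted region.

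The paralogues were the exception among the members. Rpl3l, which replaces Rpl3 in striated muscle fibres, was inactive in both of its entries in these undifferentiated myoblasts, while Rpl3 was the second highest member. Rpl39l, a paralogue of Rpl39 known from the testis, was inactive, and Rpl39 had 10.28. These 3 entries are the only inactive ones among the 75, and no ratio was taken because they carry no number. Rps27l, a paralogue of Rps27 that is induced by p53, was active at the lowest level of all members, 0.39, above 32.02% of active entries. Rps27 was not analysed here. Outside the rule, Rpl7l1 had 3.21, which is 0.573 times the 5.6 of Rpl7.

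Of the 7 genes with several entries, the entries of Rpl3l were inactive and those of the other 6 lay close together. The largest difference was in Rpl38, at 2.01 and 2.17 RPKmM, a ratio of 1.08. Rpl22 had 6.16 and 6.63, Rpl19 had 2.08 and 2.15, Rpl30 had 14.83 and 15.19, Rpl34 had 4.11 and 4.13, and Rpl35a had 2.29, 2.3 and 2.33. Such entries overlap and share reads, so they are no replicates.

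The members were spread over the genome, with 13 of the 67 genes on chromosome 7 and 4 on the X chromosome. Across the 65 active genes activity had a rank correlation of −0.0137 with span, 0.293 with the number of exons and 0.189 with the exonic share of the counted region. Its correlation with the number of snoRNAs in the counted region was 0.669. These are descriptions across genes of a single pooled library set.

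A pyrimidine run at the start, which the rule did not use, was more frequent among these genes than in the table. By the longer definition below, 28 of the 48 genes examined lacked it. Shorter runs, and runs at starts that are not annotated, did not count there. RefSeq promoters, from 250 bases before to 50 after a start of transcription in GRCm38.p6, matched 48 of the 65 active genes. In 20 of these 48 (41.7%) a C followed by at least 7 pyrimidines began within 10 bases of an annotated start, against 10.1% of the 15199 genes of the table with such a promoter, 10.4% of the 10465 other active genes among them and 7.94% of 63 genes for mitochondrial ribosomal proteins. A C with 4 pyrimidines exactly at the start was found in 10 of the 48 (20.8%), against 2.90% of all, 2.91% of other active genes and none of the mitochondrial set, and this motif can be part of the longer run. Below are, from 40 bases before to 20 bases from the start on, 7 members with a run of at least 8 that begins at most 2 bases from the start, with the run in capitals.
Rpl13a, chr7:45128726-45128785 (-): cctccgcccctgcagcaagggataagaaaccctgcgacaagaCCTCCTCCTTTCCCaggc
Rps24, chr14:24490638-24490697 (+): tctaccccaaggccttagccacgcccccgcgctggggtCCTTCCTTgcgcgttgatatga
Rps6, chr4:86857348-86857407 (-): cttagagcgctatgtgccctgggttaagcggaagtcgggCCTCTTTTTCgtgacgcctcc
Rps18, chr17:33955646-33955705 (-): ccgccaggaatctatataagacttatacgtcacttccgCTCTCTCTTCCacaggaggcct
Rps15a, chr7:118116128-118116187 (-): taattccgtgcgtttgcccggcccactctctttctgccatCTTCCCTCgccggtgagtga
Rpl18, chr7:45718031-45718090 (+): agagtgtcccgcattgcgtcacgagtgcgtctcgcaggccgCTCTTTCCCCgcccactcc
Rpl38, chr11:114668540-114668599 (+): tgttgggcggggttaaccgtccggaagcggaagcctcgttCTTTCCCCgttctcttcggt
For contrast, the highly active Rpl11 and the inactive Rpl3l have short runs near the start.
Rpl11, chr4:136053374-136053433 (-): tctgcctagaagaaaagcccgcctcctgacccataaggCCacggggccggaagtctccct
Rpl3l, chr17:24727786-24727845 (+): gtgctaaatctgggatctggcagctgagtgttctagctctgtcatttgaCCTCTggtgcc
The 20 genes with a run had a median activity of 5.21 RPKmM and the 28 without it 6.21, so members with the run were not the more active ones. CCGGAAG, the core of sites bound by ETS factors such as GABPA, occurred on either strand in 20 of the 48 promoters (41.7%), against 13.9% of all, 18.4% of other active genes and 33.3% of those for mitochondrial ribosomal proteins. The genes with it were in part others than those with the run: 11 genes had both, which is 55.0% of each set, and the letters of both overlapped in 1 of them, Rpl34. The medians with and without CCGGAAG, at 5.21 and 6.21, equalled those for the run. AAGATGGC, a core bound by YY1, occurred on either strand in 4 of the 48 (8.33%), against 3.95% of all, 4.98% of other active genes and 17.5% of the mitochondrial set. TATAA from 40 to 15 bases before the start was found in 2 of the 48 (4.17%), against 4.45% of all, 2.65% of other active genes and none of the mitochondrial set.

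Genes with related functions were lower. All 76 entries for mitochondrial ribosomal proteins, which serve the separate ribosome of that organelle, were active, against 70.2% of all entries. Their median was 1.00 RPKmM, from 0.1 for Mrpl41 to 9.39 for Mrpl52. After Mrpl52 came Mrps16 at 6.15 and Mrps6 at 5.55. No entry of this set reached 10, a level reached by only 2.03% of all entries. All 52 entries of 47 ribosome assembly factors were active, against 70.2% of all entries, with a median of 2.10. Their highest were Ncl, which encodes nucleolin, at 96.99, Nop56, a core protein of box C/D particles, at 90.57, and Nolc1, a chaperone of snoRNA particles, at 20.2. Box C/D snoRNAs lie in the counted regions of Ncl and Nop56, but also of Nop58 at 7.33 and Tsr1 at 3.8, whereas Nolc1 and Npm1, at up to 17.19, have no snoRNA annotated.

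**Figure D4:**
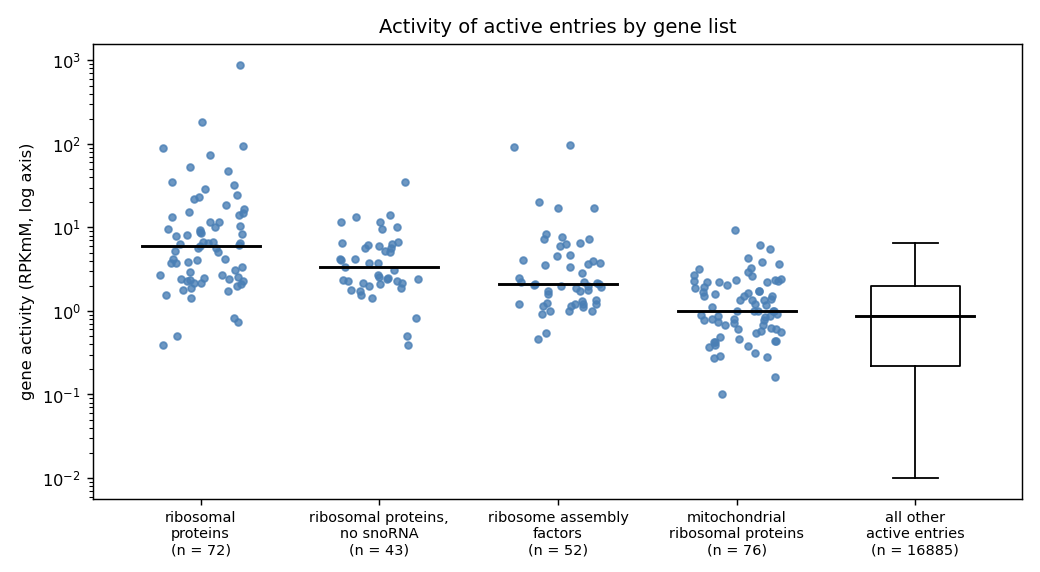
Gene activity in RPKmM on a log axis of active entries of 4 gene lists and of all other active entries (x axis, with the number of entries). Points are entries, black bars are medians, and the box shows quartiles with whiskers at the 5 and 95 percentiles. The medians are 6.06, 3.38, 2.10, 1.00 and 0.86 from left to right, and all lists overlap.

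Of 77 canonical Rpl and Rps symbols 64 were analysed and 13 were not. Of these 13, 12 have a GENCODE gene, and 11 of those span less than the 2 kb that the authors required. The remaining one, Rps3a, is the Rps3a1 given above.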

How the data were processed

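The authors made 2 GRO-seq libraries of C2C12 myoblasts. They mapped 76 bp reads to mm9 with Bowtie2 (base calls by CASAVA 1.8, per the labels), required a unique hit with a mapping quality of at least 40, trimmed reads that failed this by 5 bp at a time down to 21 bp, discarded rRNA and tRNA repeats, and pooled both libraries. The authors deposited activity as RPKM over mappable bases (RPKmM), rounded to 2 decimals. In 7208 rows the word Inactive stands in place of a number, at a false discovery rate of 0.01 against gene deserts. The table holds no read numbers, and none were derived from the pooled total. Reads shared with processed pseudogenes or paralogues can fall below the mapping quality, so such stretches are uncertain. No column of samples was left unused.

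Spans, exons and snoRNAs came from GENCODE vM1 (NCBIM37, the same build), matched by symbol for 67 of 67 members and 87.3% of all symbols. The coding transcript of the lowest number was used, whose start can differ from that of the RefSeq entry. A snoRNA counted as inside where its midpoint lay at least 1 kb after the start. Named genes were the 10 highest and 10 lowest, the inactive ones, paralogues, genes with several entries and fixed role lists. The members and lists were chosen with earlier results of these data known. The values of a few genes are not reported here, though counts and medians include them. No test was run, as there is 1 pooled value per gene. Python 3.11.15, numpy 2.4.6, pandas 2.3.3, scipy 1.17.1, pysam 0.24.0 and matplotlib 3.10.9 were used.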

Additional observations from a re-analysis of the deposited data

How the results depend on the processing

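Of 48 values computed under other settings, 44 stayed within 1.5 times the value reported and 4 did not. Of the 48, 7 values came from settings chosen after seeing the data. The ratio of ribosomal protein to other active entries, 7.05, became 10.97 with geometric means of activity + 0.01 in place of medians and 3.84 with only entries of genes without snoRNA on both sides. The ratio of large to small subunit entries, 0.948, became 0.490 among members without snoRNA, and it lay from 0.919 to 1.09 otherwise. The ratio of host genes to members without snoRNA, 4.49 by entries, became 1.97 when hosts were those with a snoRNA in the first kb only, and it was 6.69 for those with a snoRNA in the counted region. The cause of these changes was not tested. The median of 6.06 RPKmM stayed from 5.67 to 6.71. The number of active entries stayed from 65 to 71, and that of entries of at least 10 RPKmM at 22 or 23.

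No paired analysis was possible because the table holds 1 value for both libraries pooled. For the same reason no replicate was left out in turn. The table gives no read number behind a value, and the shortest counted regions, of about 1 kb, rest on fewer bases than the longest, of 9359 bp.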
